A study of Mus musculus with 4 samples.

Results

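Cushion endocardial cells (cushion EdCs) line the atrioventricular canal and outflow tract of the embryonic heart, where they face the blood on one side and the swelling cardiac jelly of the cushions on the other. They were examined in single-cell RNA sequencing data from mouse hearts at E10.5. The cells were chosen by their transcript counts, in which each molecule counts once by its unique molecular identifier (UMI). The barcode had to show at least 1500 genes and at most 10% mitochondrial UMIs, and, per 10000 of its UMIs, at least 4 from the endothelial genes *Pecam1*, *Cdh5*, *Ecscr*, *Tie1* and *Plxnd1* together, fewer than 15 from *Tnnt2* and fewer than 500 from *Hbb-y*. It also had to hold 1 UMI or more of *Npr3*, *Nrg1* or *Nfatc1*, and more UMIs of *Nfatc1*, *Wnt4* and *Tbx20* together than of *Emcn*, *Npr3* and *Gpr182* together. Of 30415 barcodes that passed the first limits, 979 were cushion EdCs. Endocardial cells with the opposite balance of these 6 genes are called chamber EdCs here and numbered 1400, and 81 cells with equal sums belonged to neither class.

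The data hold 4 libraries of whole dissected hearts with the cardiogenic region, 2 from control embryos (Tie2flfl, libraries 5 and 7) and 2 from *Tie2-cko* embryos (Nfatcre-Tie2flfl, libraries 6 and 8). Both genotypes therefore carry the floxed *Tie2* alleles, and only the *Tie2-cko* embryos carry the Cre, which the study's methods describe as a constitutive knock-in at *Nfatc1*, with embryos of either sex on a mixed background of 2 strains, C57/BL6 among them. Control and mutant libraries came from 1 litter matched by somites and shared a sequencing lane, and the study's methods give 2 hearts for each genotype without saying how they were divided between its libraries. The controls lacked the Cre, so that *Tie2* loss and the presence of the Cre cannot be told apart. Cushion EdCs numbered 216 in control library 5, 314 in control library 7, 118 in *Tie2-cko* library 6 and 331 in *Tie2-cko* library 8. Their summed UMIs were 3945126, 4357939, 4172896 and 5079876, and the median cushion EdC held 15776, 12396.5, 26731.5 and 12741 UMIs. Throughout, 4 values in a row stand for libraries 5, 7, 6 and 8 in this order, control first. A level is the number of a gene's UMIs per 10000 UMIs, summed over all cells of a class in a library. Cells of a library are not replicates, so tests were made on these sums with edgeR's quasi-likelihood test, and an adjusted p is a Benjamini-Hochberg value over all genes tested.

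Endocardial cells are the endothelium of the heart. In the cushions they respond to BMP, TGF-beta, Notch and Wnt signals, make hyaluronan and versican for the jelly beneath them, and a subset leaves the sheet by epithelial-to-mesenchymal transition (EMT) to form valve mesenchyme, while *Nfatc1*-expressing cells remain in the lining. The canal and outflow tract are narrow and carry fast flow, and the transcription factors KLF2 and KLF4 are induced in endothelium by shear stress through the kinase ERK5 and MEF2 factors. TIE2, the product of *Tek*, is the endothelial receptor for angiopoietins, acts through PI3K and AKT, and by this route keeps FOXO1 out of the nucleus.

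*Tek* (ENSMUSG00000006386, chr4:94739289-94874976 on GRCm38, plus strand) was the first gene examined, as it is the one deleted. Its level in cushion EdCs was 0.897 and 1.82 in the control libraries and 0.237 and 0.228 in the *Tie2-cko* libraries. Both *Tie2-cko* libraries lay below both controls, and they lay closer to each other than the controls did. The log2 fold change was -2.59 (SE 0.29), and its adjusted p of 0.0536 by edgeR missed the threshold of 0.05. It was under the threshold in 8 of the 9 alternative analyses that kept all libraries, and above it under stricter limits on *Tnnt2*, *Hbb-y* and mitochondrial UMIs. With 1 library left out the log2 fold change was between -3.01 and -1.99, and the adjusted p from these fits assumes that the lone library of a genotype varies like those of the other, so it is not counted. In cells thinned to 5500 UMIs each, a *Tek* UMI was held by 31.6% and 54.9% of control cushion EdCs and 8.62% and 8.23% of *Tie2-cko* cushion EdCs, against 0.140% to 0.344% of cardiomyocytes (CMs), which should lack the gene. The share in *Tie2-cko* libraries was thus below that of the controls and above that of CMs. In chamber EdCs the levels were 0.827, 0.982, 0.360 and 0.288. The test of whether the fall differed between the classes gave a log2 difference of -1.01 (SE 0.24) with an adjusted p of 0.137 by edgeR. This difference was -0.59 without control library 7 and -1.37 without control library 5. Which exon is deleted is not given in the sources used here, and whether a remaining *Tek* UMI came from a recombined allele cannot be told apart.

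Several properties of the libraries bear on what follows. Any 2 libraries shared 5 to 27 of their kept barcodes, out of 4468 to 9019. *Xist*, the RNA of the inactive X chromosome, had a level of 0.636 in cushion EdCs of control library 5 and no UMI in the other 3 libraries, where 3 UMIs would have given 0.00688, 0.00719 and 0.00591. The Y-linked gene *Ddx3y* was found in all 4 libraries (0.337, 0.470, 0.494 and 0.470), so library 5 alone held UMIs of both genes. Of 4 tested genes on a list of sex-linked genes, 3 were higher in cushion EdCs of both *Tie2-cko* libraries and none lower. Over all genes tested 18.7% were higher and 10.1% lower in this way. The median log2 fold change of the list was 0.25, and the part of sex in the genotype differences was not tested. Libraries 5 and 6 differed from libraries 7 and 8 in 2 genes chosen after their values had been seen, a split that the labels do not mention. The histone gene *Hist1h2ap* had levels of 8.20 and 9.88 in libraries 5 and 6 but 3.68 and 2.35 in libraries 7 and 8, and the liver gene *Afp* had 0.337 and 0.189 against 0 and 0.0433. Each pair holds 1 control and 1 *Tie2-cko* library.

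The 14 genes of the rule and the markers given with it describe the cells and were not tested between the classes. *Nfatc1*, the transcription factor of the valve-forming endocardium, had levels of 1.90, 1.86, 1.69 and 1.88 in cushion EdCs and 0.476, 0.468, 0.491 and 0.493 in chamber EdCs. *Tbx20*, a T-box factor needed for cushion and valve growth, had 3.07, 3.21, 3.27 and 3.27 against 0.296, 0.371, 0.271 and 0.433. *Wnt4*, a secreted Wnt ligand, had 2.74, 3.35, 2.53 and 2.33 against 0.414, 0.518, 0.278 and 0.315. The cushion libraries lay close together for *Nfatc1* and *Tbx20*, whereas the control values of *Wnt4* exceeded the *Tie2-cko* values in each class. On the other side of the rule *Emcn*, a sialomucin of the endothelial surface, had 0.418, 0.454, 0.606 and 0.429 in cushion EdCs and 4.99, 4.94, 6.02 and 6.98 in chamber EdCs. *Npr3*, the natriuretic peptide clearance receptor, had 0.578, 0.698, 0.556 and 0.642 against 1.87, 2.57, 1.69 and 1.93. *Gpr182*, an orphan-type receptor of endothelium, had 0.373, 0.376, 0.314 and 0.248 against 1.35, 1.37, 1.06 and 0.831. These genes were low in cushion EdCs but not absent, and the endothelial genes of the rule were shared by both classes. *Pecam1*, an adhesion protein of all endothelium, was at 2.65, 2.48, 2.44 and 2.73 in cushion EdCs and 1.93, 1.79, 1.98 and 2.27 in chamber EdCs. *Cdh5*, the endothelial cadherin, was at 1.70, 1.99, 1.77 and 2.09 and 2.08, 2.47, 2.50 and 2.71. *Nrg1*, the endocardial ligand for ERBB receptors of the myocardium, was at 0.887, 1.01, 0.923 and 1.22 and 0.554, 0.736, 0.647 and 0.694. The name of a cushion endocardial cell thus rests on *Nfatc1*, *Wnt4*, *Tbx20* and endothelial genes, which chose the cells. The markers *Klf2*, *Nts* and *Stmn2* were not part of the rule but were picked from earlier results of these data, so their levels describe the class and lend its name no independent support.

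*Klf2* (ENSMUSG00000055148, chr8:72319033-72321656, plus strand) had levels of 7.90, 8.45, 7.84 and 8.67 in cushion EdCs. Chamber EdCs had 1.65, 1.94, 1.65 and 2.39, so that the means over 4 libraries stood 4.31 times apart. *Nts* (ENSMUSG00000019890, chr10:102481756-102490486, minus strand), which encodes the neuropeptide neurotensin, had 1.30, 1.62, 1.02 and 1.37 in cushion EdCs and 0.0639, 0.110, 0.101 and 0.265 in chamber EdCs. *Stmn2* (ENSMUSG00000027500, chr3:8509360-8561606, plus strand), which encodes a tubulin-binding stathmin of growing axons, had 1.91, 3.01, 1.70 and 2.32 against 0.203, 0.188, 0.342 and 0.471. No library of chamber EdCs reached the lowest library of cushion EdCs for any of these 3 genes. The plot of marker levels shows them beside CMs, in which *Nts* and *Stmn2* did not exceed 0.00402 and 0.00620, and beside endothelial cells without a UMI of *Npr3*, *Nrg1* or *Nfatc1*.

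**Figure D1:**
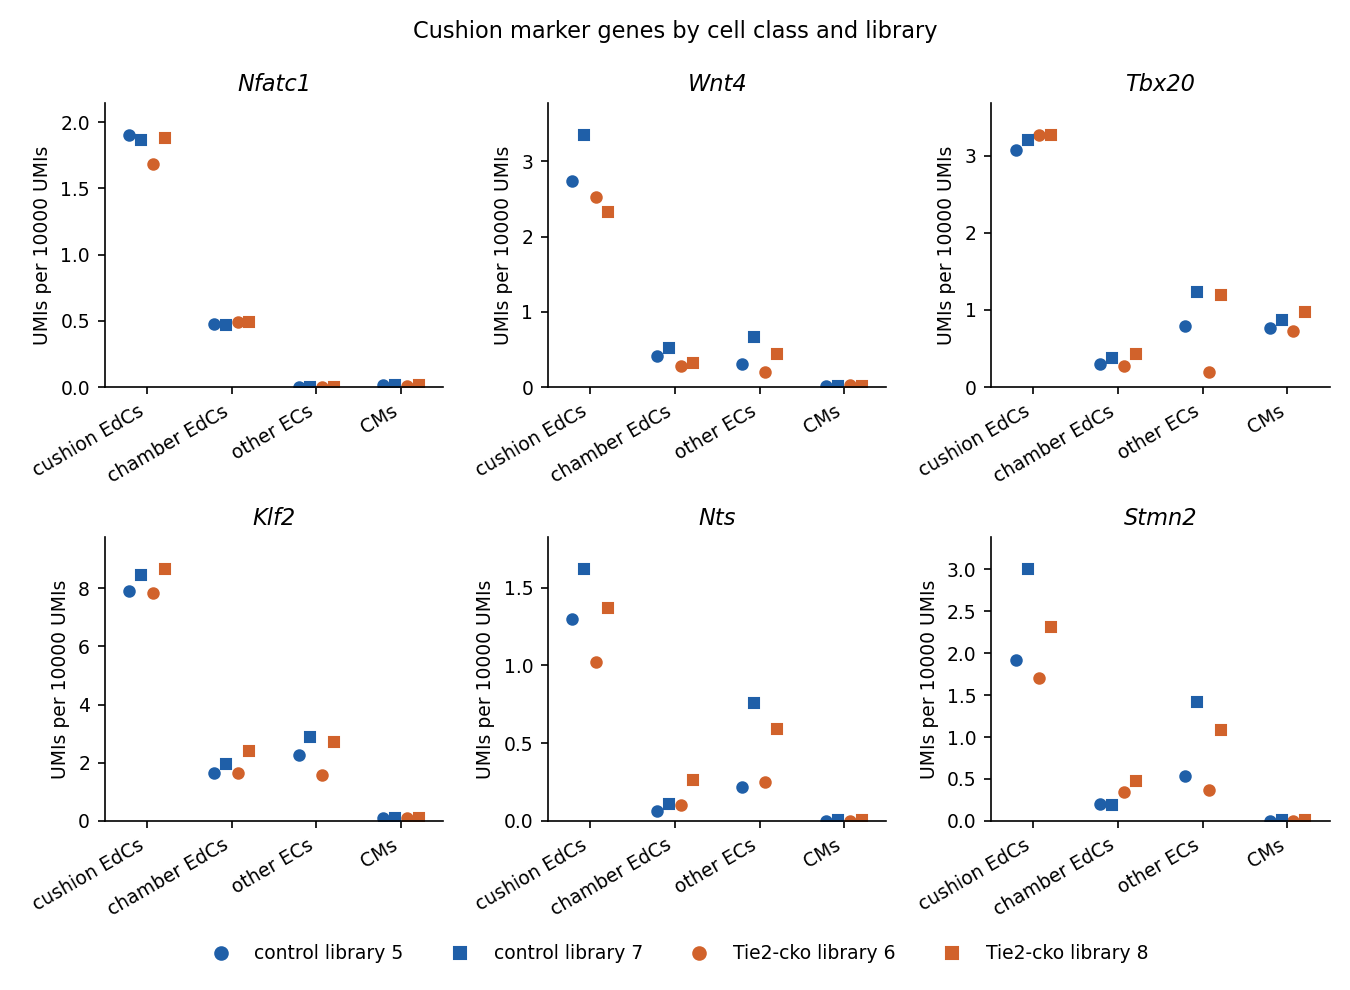
Levels (UMIs per 10000 UMIs, vertical axes from 0) of the 6 cushion markers in cushion EdCs, chamber EdCs, other endothelial cells (other ECs, without *Npr3*, *Nrg1* or *Nfatc1* UMIs) and CMs. Each point is 1 library, blue for control and orange for *Tie2-cko*, and for each gene the 4 cushion points stand above the 4 chamber points.

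The line between the classes ran through a continuous range. Among all libraries 79 cells lay just inside the rule with 1 more UMI of the cushion genes than of the chamber genes, 81 had equal sums, and 86 lay just outside with 1 fewer. At a difference of 2 UMIs there were 86 cells on the cushion side and 59 on the chamber side. After thinning to 5500 UMIs, 71.2% to 73.2% of cushion EdCs held a *Tbx20* UMI, 56.9% to 62.3% a *Nfatc1* UMI and 41.4% to 53.9% a *Wnt4* UMI, depending on the library.

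Cushion and chamber EdCs were then compared across all genes outside the rule and its markers, with the library as a block. The split used UMIs of 6 genes in the same cells, so the calls of this comparison describe the cells that the rule separated and support nothing beyond that. Of 11433 genes, 2616 (22.9%) were higher and 2810 (24.6%) lower in cushion EdCs at an adjusted p under 0.05 by edgeR, 47.5% in all. Against so large a background, a list is described by its count of called genes and by its median log2 difference, which was -0.0046 over all genes. Median UMIs per cell were lower in cushion than in chamber EdCs in 3 of the 4 libraries, at 15776, 12396.5, 26731.5 and 12741 against 17181.5, 15221, 31717 and 12621, and the part of this gap in the differences was not tested.

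Genes were ranked by the size of the difference among those with a level of at least 0.5 and the same sign in 4 libraries. Genes of lower level, some of which differed by more, were not ranked. The leading genes in cushion EdCs were *Cdo1*, a cysteine dioxygenase, *Ccdc141*, *Igfbp7*, an insulin-like growth factor binding protein, the junction protein gene *Jam2*, *Krt79* and *Pi16*. After them came *Vcan*, *5330416C01Rik*, *Klf4*, the nuclear RNA *Neat1*, *Stk38l* and *Sox9*. The log2 differences of these 12 genes ran from 2.93 to 4.86. *Cdo1* had levels of 1.33, 2.0, 1.34 and 1.28 in cushion EdCs and 0.0332, 0.0482, 0.0484 and 0.0600 in chamber EdCs. *Igfbp7* had 2.61, 2.07, 2.85 and 1.94 against 0.131, 0.142, 0.182 and 0.203. For each of these 12 genes the lowest cushion library lay above the highest chamber library.

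The 12 genes furthest in the other direction were taken under the same limits on level and sign. They were *Pf4*, *Clec1b*, the Iroquois factor gene *Irx5*, *Klhl4*, the gap junction gene *Gja4*, *Tm4sf1*, *Pkdcc*, *Pcdh7*, *Col23a1*, *Gatm*, *Dlk1* and *Cavin2*, a caveolar protein. *Irx5* had 0.119, 0.0757, 0.127 and 0.0846 in cushion EdCs and 2.40, 1.92, 2.35 and 1.72 in chamber EdCs. *Gja4*, which encodes connexin 37, had 0.304, 0.246, 0.256 and 0.356 against 2.20, 2.09, 1.68 and 2.11. *Pf4*, a platelet chemokine, had its chamber UMIs mostly in *Tie2-cko* library 6, with a level of 9.28. In the other 3 libraries its chamber level was between 0.0249 and 0.0908, and without library 6 its log2 difference was -2.45 instead of -7.66. The plot of these 24 genes shows that *Pf4* is the only one whose chamber libraries spread so widely.

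**Figure D2:**
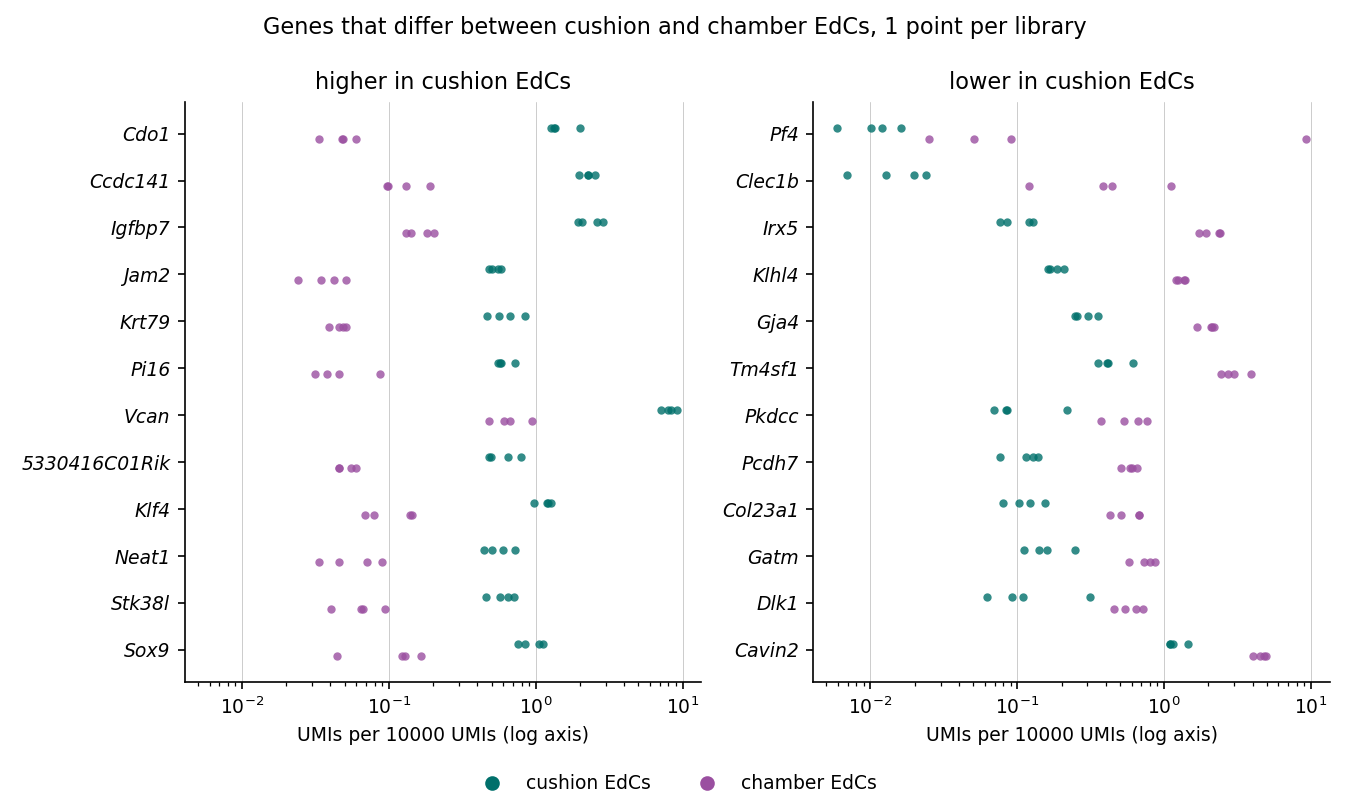
Levels (UMIs per 10000 UMIs, log axis) of the 12 genes furthest higher and the 12 furthest lower in cushion EdCs. They were ranked among genes with a level of at least 0.5 and the same sign in 4 libraries. Each class has 4 points, 1 for each library. Cushion (green) and chamber (purple) points do not overlap for any of the 24 genes.

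Flow-related genes stood mostly on the cushion side. Of 13 tested genes on a list of flow sensors, the CCM complex and their targets, 11 were higher and 2 lower, with a median log2 difference of 0.45. *Klf4* (ENSMUSG00000003032, chr4:55527143-55532466, minus strand), a shear-induced relative of *Klf2*, had 1.19, 0.978, 1.27 and 1.21 in cushion EdCs and 0.0787, 0.0684, 0.143 and 0.139 in chamber EdCs, a log2 difference of 3.34 (SE 0.13). *Wnt9b*, a Wnt ligand of the valve endocardium, had 0.0938, 0.119, 0.0983 and 0.0925 in cushion EdCs, and in chamber EdCs its levels were 0.00123, 0, 0.00127 and 0.00146, with no UMI in library 7. Both genes were thus at a low or near-zero level in chamber EdCs. *Heg1*, the membrane partner of the CCM complex, had 1.18, 1.34, 1.15 and 1.26 against 0.396, 0.342, 0.471 and 0.427. *Edn1*, endothelin, had 1.25, 1.70, 1.35 and 1.91 against 0.495, 0.417, 0.787 and 1.10. The differences of *Thbd* (log2 1.16), *Map3k3* (0.62), *Pkd2* (0.45), *Nos3* (0.37), *Piezo1* (0.28), *Krit1* (0.27) and *Pdcd10* (0.19) were in the same direction and smaller. *Ccm2* (-0.42) and the Notch ligand *Dll4* (-1.34) were lower in cushion EdCs.

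The 250 bases before the RefSeq start of *Klf2* (chr8:72318812-72319061, plus strand) and *Klf4* (chr4:55532476-55532725, minus strand) are shown because both genes were high in cushion EdCs and because *Klf2* is known to be induced through a MEF2 site near its start. They come from RefSeq on GRCm38.p6 and read 5′ to 3′, and capitals mark matches to the MEF2-type motif CTANNNNTAG, which was searched on both strands and reads the same on each.
Klf2: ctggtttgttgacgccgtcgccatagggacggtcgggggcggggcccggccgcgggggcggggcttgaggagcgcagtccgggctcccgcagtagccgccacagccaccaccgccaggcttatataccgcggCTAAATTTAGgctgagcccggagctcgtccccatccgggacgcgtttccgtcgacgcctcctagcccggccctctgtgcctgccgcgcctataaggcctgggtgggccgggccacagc
Klf4: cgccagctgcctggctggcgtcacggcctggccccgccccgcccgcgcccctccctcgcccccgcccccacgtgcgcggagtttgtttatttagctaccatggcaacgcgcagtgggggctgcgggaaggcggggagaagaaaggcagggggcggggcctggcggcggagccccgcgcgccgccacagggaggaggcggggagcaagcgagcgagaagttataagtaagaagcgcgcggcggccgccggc
The window of *Klf2* holds 1 match, CTAAATTTAG, from 118 to 109 bases before the start, and the window of *Klf4* holds none. Of 32851 promoter windows of this length, 1052 (3.20%) hold a match. A match is a run of letters, and its absence says only that these letters are not in this window.

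The calcineurin and NFAT genes, which act upstream of and beside *Nfatc1*, had 5 of 7 tested members higher and none lower, at a median log2 difference of 0.55. *Rcan1*, a calcineurin inhibitor that NFAT itself induces, had 1.14, 0.934, 1.10 and 0.939 in cushion EdCs and 0.469, 0.375, 0.531 and 0.519 in chamber EdCs. *Ppp3ca*, the catalytic subunit of calcineurin, had 2.08, 2.73, 2.04 and 2.32 against 1.16, 1.54, 1.39 and 1.55. *Nfatc4* was at 0.155, 0.0987, 0.153 and 0.154 against 0.0344, 0.0101, 0.0331 and 0.0307.

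Among the transcription factors of cushion development and EMT, 11 of 14 tested genes were higher and none lower, with a median log2 difference of 1.04. *Twist1*, which drives mesenchymal fate and growth in the cushions, had 1.59, 1.66, 1.83 and 1.82 in cushion EdCs and 0.347, 0.391, 0.334 and 0.429 in chamber EdCs. *Sox9*, a factor of cushion mesenchyme, had 0.849, 0.753, 1.12 and 1.06 against 0.0442, 0.129, 0.164 and 0.123. *Gata4*, a cardiac zinc-finger factor, had 1.69, 1.43, 1.79 and 1.49 against 0.471, 0.389, 0.577 and 0.392. No library of chamber EdCs reached the lowest cushion library for any of them. *Msx1*, a homeobox target of BMP, differed by 1.86 on the log2 scale, *Snai2*, which represses cadherin genes in EMT, by 1.38, and *Snai1*, its relative, by 0.93. *Zeb2*, *Hand2* and *Prrx1* were not called, with log2 differences of 0.12, 0.076 and 0.59. Of the 8 genes of a mesenchymal list, *Sox9*, *Twist1*, the growth factor receptor *Pdgfra* and *Cthrc1* were higher and none was lower (median log2 difference 1.46). The collagen gene *Col1a1*, abundant in mesenchyme, had 0.104, 0.0344, 0.146 and 0.0335 in cushion EdCs. *Postn*, periostin of the differentiated mesenchyme, had 0.165, 0.229, 0.199 and 0.236 against 0.211, 0.238, 0.0980 and 0.209 in chamber EdCs and was not called. *Sox9* and *Twist1* also stand in the list of factors.

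Matrix genes split in both directions, with 7 of 20 tested higher and 7 lower (median log2 difference 0.059). On the higher side were makers and partners of the hyaluronan-rich jelly. *Vcan* (ENSMUSG00000021614, chr13:89655312-89742509, minus strand), the large proteoglycan versican, had 7.95, 7.14, 8.30 and 9.12 in cushion EdCs and 0.478, 0.605, 0.668 and 0.947 in chamber EdCs, a log2 difference of 3.49 (SE 0.095). *Has2*, the hyaluronan synthase of the cushions, had 0.943, 0.817, 1.04 and 1.11 against 0.101, 0.0964, 0.108 and 0.174. *Hapln1*, which links versican to hyaluronan, had 11.2, 12.1, 11.3 and 11.2 against 3.66, 4.59, 3.0 and 2.77. The classes did not overlap for these 3 genes. *Fbln2* and *Fbln1*, fibulins that bind versican and other matrix proteins, *Cd44*, a hyaluronan receptor, and *Hspg2*, perlecan, made up the rest, with log2 differences of 2.33, 0.80, 1.01 and 0.59. The lower side held basement membrane collagens, together with *Col26a1*, *Col13a1*, *Hapln3*, *Bgn* and *Tgfbi*. *Col4a1* had 3.29, 2.91, 3.67 and 2.79 in cushion EdCs against 5.58, 5.41, 7.04 and 6.66, and *Col4a2*, its partner chain, differed by -1.0 on the log2 scale. *Vcan* UMIs were also common in CMs, at 3.18, 4.20, 3.36 and 3.75, and the part of free RNA in the cushion level was not tested.

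Of 11 tested proteases and inhibitors of such matrix, 7 were higher and 2 lower (median log2 difference 0.47). *Adamts19*, a metalloprotease of the developing valves, had 0.129, 0.133, 0.180 and 0.0886 in cushion EdCs and 0.00369, 0.00560, 0.00382 and 0.00439 in chamber EdCs. *Adamts5*, which cleaves versican, had 0.188, 0.314, 0.259 and 0.144 against 0.0258, 0.0661, 0.0382 and 0.0307. *Adamts1* and *Adamts9* also cleave versican and were lower, with log2 differences of -0.49 and -2.02, so that versican-cleaving proteases stood on both sides. The inhibitors *Timp1* and *Timp2* were higher (0.71 and 0.76), and *Timp3* (0.25) was not called.

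Receptors, ligands and targets of the cushion signals were compared next. In the BMP and TGF-beta list 12 of 23 tested genes were higher and 5 lower (median log2 difference 0.31). The inhibitory SMAD genes, which the pathway itself induces, were among the higher ones. *Smad6* had 0.804, 0.952, 0.894 and 1.12 in cushion EdCs against 0.242, 0.327, 0.326 and 0.427, and *Smad7* had 2.08, 2.07, 2.26 and 2.50 against 0.666, 0.641, 0.918 and 1.01. The ligand *Tgfb2* differed by 1.18 on the log2 scale and the BMP targets *Id1* and *Id3* by 0.56 and 0.50. The endothelial receptor *Acvrl1*, for BMP9 and BMP10, had 0.00507, 0.0138, 0.00479 and 0.00197 in cushion EdCs against 0.119, 0.0717, 0.125 and 0.117. Its cushion levels in libraries 5, 6 and 8 rest on fewer than 3 UMIs each. With *Acvrl1* on the lower side were the coreceptor *Tgfbr3* (-1.90) and *Tmem100* (-1.92), a target of the *Acvrl1* receptor, while its coreceptor *Eng* was higher (0.39). *Bmp2*, a myocardial ligand, was not called.

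In the Notch list 5 of 14 tested genes were higher and 5 lower (median log2 difference 0.25). The receptor *Notch1* had 1.45, 1.54, 1.43 and 1.55 against 0.801, 0.847, 0.858 and 0.938 in chamber EdCs. *Hey2*, a target gene of the pathway, had 0.766, 0.815, 0.879 and 0.908 against 0.0688, 0.0829, 0.103 and 0.177. The ligand *Jag1*, the nuclear mediator *Rbpj* and the target *Heyl* were the other higher genes, with log2 differences of 1.69, 0.43 and 2.66. The ligands *Dll4* and *Dll1*, the receptor *Notch4*, the glycosyltransferase *Mfng* and the target *Hes1* were lower, with log2 differences of -1.34, -2.20, -0.48, -0.92 and -0.56. Ligands and targets were therefore found on both sides, and the target *Hey1* was not called.

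In the Wnt list 8 of 18 tested genes were higher and 2 lower (median log2 difference 0.52). Ligands higher in cushion EdCs besides *Wnt9b* were *Wnt11*, *Wnt5a* and *Wnt2* (log2 1.72, 1.34 and 1.15). *Lef1*, a nuclear factor of canonical Wnt signalling, had 0.134, 0.161, 0.259 and 0.116 in cushion EdCs against 0.0381, 0.0258, 0.0675 and 0.0468. *Axin2*, a target that this branch induces, had 0.0355, 0.0528, 0.0647 and 0.0394 against 0.00983, 0.00896, 0.0140 and 0.0205. The receptor *Fzd4* and *Ctnnb1*, beta-catenin, were on the lower side, with log2 differences of -1.09 and -0.41.

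The VEGF list had the opposite balance, with 3 of 9 tested genes higher and 6 lower (median log2 difference -0.82). *Kdr*, the main VEGF receptor, had 0.563, 0.601, 0.580 and 0.724 in cushion EdCs and 2.18, 1.97, 2.77 and 2.31 in chamber EdCs. The coreceptors *Nrp1* and *Nrp2*, the receptor *Flt4* and the ligands *Vegfb* and *Vegfc* were also lower. The decoy receptor *Flt1* was slightly higher (0.24 on the log2 scale), and the ligands *Vegfa* and *Pgf* were higher by 1.51 and 2.73. All 4 tested neuregulin and EGF genes were higher (median log2 difference 1.21). *Hbegf*, a growth factor that binds heparin and ERBB receptors, had 0.641, 0.505, 0.458 and 0.787 against 0.175, 0.128, 0.262 and 0.360, and the receptor *Erbb3* had 0.0887, 0.0505, 0.0767 and 0.0906 against 0.00614, 0.00784, 0.00382 and 0.0146. *Erbb2*, the receptor without a ligand of its own, and *Erbb4* differed by 0.77 and 1.14.

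Cell cycle genes were lower in cushion EdCs in 10 of 15 cases and higher in 2 (median log2 difference -0.50). The D-type cyclin *Ccnd2* had 1.71, 1.97, 2.12 and 1.28 in cushion EdCs and 4.61, 4.98, 5.03 and 4.41 in chamber EdCs, and *Ccnd1* had 1.10, 1.10, 1.47 and 0.949 against 1.84, 1.94, 1.93 and 1.67. The 2 higher genes encode inhibitors of cyclin-dependent kinases. *Cdkn1a*, p21, had 0.406, 0.498, 0.359 and 0.427 against 0.0602, 0.0818, 0.0484 and 0.0849, and *Cdkn1b*, p27, differed by 0.35 on the log2 scale. *Cdkn1c*, p57, an inhibitor of the same family, was lower, at 53.3, 47.6, 62.0 and 35.8 against 102, 104, 98.8 and 75.6. The proliferation markers *Mki67* and *Top2a* were not called, with log2 differences of -0.026 and -0.080.

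Beside *Nts* and *Stmn2*, 6 further neuronal-type genes could be tested, of which 3 were higher and 2 lower in cushion EdCs (median log2 difference 0.66). *Elavl4*, an RNA-binding protein of neurons, had 0.253, 0.236, 0.237 and 0.352 against 0.0283, 0.0258, 0.0815 and 0.104 in chamber EdCs. *Tubb3*, the neuronal tubulin, had 0.228, 0.140, 0.103 and 0.112 against 0.0135, 0.0269, 0.0204 and 0.0337, and the ubiquitin hydrolase gene *Uchl1* had 0.357, 0.450, 0.326 and 0.506 against 0.123, 0.129, 0.124 and 0.196. The classes did not overlap for these 3 genes. *Pcp4* and *Stmn1* were lower (-1.45 and -0.13 on the log2 scale), and *Gap43*, a growth cone protein, was not called. A list of 7 neuron and neural crest markers summed to 0.507, 0.383, 0.357 and 0.480 in cushion EdCs and 0.0492, 0.0605, 0.126 and 0.161 in chamber EdCs, with most UMIs from *Elavl4*. Its 2 tested members, *Elavl4* and *Tubb3*, were both higher, at a median log2 difference of 2.30. Of the others, *Nefm*, a neurofilament gene, was at 0.00253, 0, 0.00479 and 0.00197, *Nefl*, another of that family, at 0.0101, 0.00459, 0.00719 and 0.00394, and *Sox10*, of neural crest, at 0.00507, 0, 0 and 0, all near 0. The part of neural RNA in the levels of the neuronal-type genes was not tested.

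Of the Tie pathway genes, 4 of 11 tested were higher and none lower, with a median log2 difference of 0.054. Over all genes, 22.9% were higher and 24.6% lower. *Ptprb*, the endothelial phosphatase that removes phosphate from TIE2, had 2.39, 2.77, 2.50 and 2.22 in cushion EdCs and 0.324, 0.271, 0.420 and 0.448 in chamber EdCs, a log2 difference of 2.65 (SE 0.13). *Foxo1*, the factor that AKT keeps in the cytoplasm, had 0.836, 0.805, 0.786 and 0.850 against 0.474, 0.434, 0.441 and 0.414. *Foxo4* and *Pik3ca* completed the 4, with differences of 0.84 and 0.31. *Tek* itself was not called between the classes, at 0.054, and the ligands *Angpt1* and *Angpt2* did not exceed 0.0527 and 0.0197 in cushion EdCs.

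RNA of other cell types was measured in the cushion EdCs. The 8 CM genes summed to 15.8, 20.9, 18.6 and 19.0 in cushion EdCs, 13.8, 17.4, 12.6 and 26.3 in chamber EdCs and 546, 523, 527 and 523 in CMs, and *Myl7* held most of these UMIs. None of the 7 CM genes tested between the classes was called. *Ttn*, titin of the sarcomere, was highest in *Tie2-cko* library 6, at 2.64 against 0.897, 0.927 and 1.16 in libraries 5, 7 and 8. The 6 red blood cell genes, with most UMIs from *Hbb-y*, summed to 55.7, 24.6, 12.6 and 9.71 in cushion EdCs and 49.7, 22.3, 10.6 and 8.74 in chamber EdCs, so that the libraries differed far more than the classes. Vascular endothelial genes summed to 0.198, 0.147, 0.187 and 0.167 against 1.56, 0.627, 2.54 and 1.39 in chamber EdCs, with most UMIs from *Flt4*. Of these, *Cldn5*, a tight junction gene of vessels, was at 0.0228, 0.0275, 0.0240 and 0.0433 against 0.590, 0.174, 0.671 and 0.493. Macrophage and platelet genes summed to 0.0811, 0.0895, 0.0575 and 0.0768 against 0.133, 0.173, 9.81 and 0.0819, the high chamber value being that of library 6. Epicardial genes summed to at most 0.135, epithelial genes to at most 0.592 and liver genes to at most 0.692 in cushion EdCs. The part of these RNAs in any difference between the classes was not tested.

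Cushion EdCs were not uniform. After thinning to 5500 UMIs, an *Nts* UMI was present in 59 of 215 cells of control library 5, 114 of 306 of control library 7, 34 of 116 of *Tie2-cko* library 6 and 108 of 328 of *Tie2-cko* library 8, which is 27.4%, 37.3%, 29.3% and 32.9%. Cells of the opposite class, thinned alike, held one in 1.68% to 7.14% of cases and CMs in at most 0.279%. Cushion EdCs with and without an *Nts* UMI differed in other genes, and those named here were chosen after their values had been seen and are given without a test. Of 3169 genes with a level of at least 0.5, 495 were higher and 307 lower in cells with *Nts* in all 4 libraries. How many genes would keep the same sign by sampling alone was not tested. *Igfbp5*, an insulin-like growth factor binding protein, had levels of 9.15, 9.92, 8.56 and 5.94 in cells with *Nts* and 4.42, 4.52, 3.39 and 2.96 in cells without. *Cd34*, a sialomucin of endothelial and progenitor cells, had 5.15, 3.19, 4.97 and 4.90 against 1.97, 2.43, 2.11 and 2.20. *Krt79*, *Efna1* and the sphingosine receptor *S1pr1* were also higher in all 4, by 2.36, 2.18 and 2.07 times on the means. *Vwf*, von Willebrand factor, had 1.23, 0.287, 0.267 and 0.808 against 0.280, 0.199, 0.266 and 0.198, a difference carried by libraries 5 and 8 and lacking in library 6. *Stmn2* UMIs were present in 50.8%, 61.4%, 32.4% and 53.7% of cells with *Nts* and 38.5%, 43.2%, 25.6% and 32.7% of cells without.

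Cells without an *Nts* UMI had more *Apoe*, apolipoprotein E, at 14.5, 10.4, 11.8 and 13.1 against 4.75, 4.47, 4.28 and 4.21. They had more *Fabp5*, a fatty acid binding protein, at 35.8, 36.1, 19.7 and 31.0 against 15.5, 24.6, 11.8 and 12.7. *Cyp26b1*, which degrades retinoic acid, had 0.699, 0.843, 0.710 and 0.802 against 0.277, 0.319, 0.107 and 0.505. For each of these genes every library showed the same direction. *Nrg1*, a gene of the rule, had 1.07, 1.12, 1.18 and 1.48 against 0.431, 0.750, 0.214 and 0.438. *Twist1*, of the EMT factors, had 1.91, 1.74, 2.17 and 2.03 against 0.924, 1.34, 1.39 and 1.26, and the mesenchymal cadherin gene *Cdh11* had 0.431, 0.862, 0.421 and 0.702 against 0.247, 0.271, 0.374 and 0.185. Cells of both kinds were found in both genotypes, as the plot of cells with and without *Nts* shows. An *Nts* UMI is missed in many cells at this depth, so cells without one may include cells that express the gene.

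**Figure D3:**
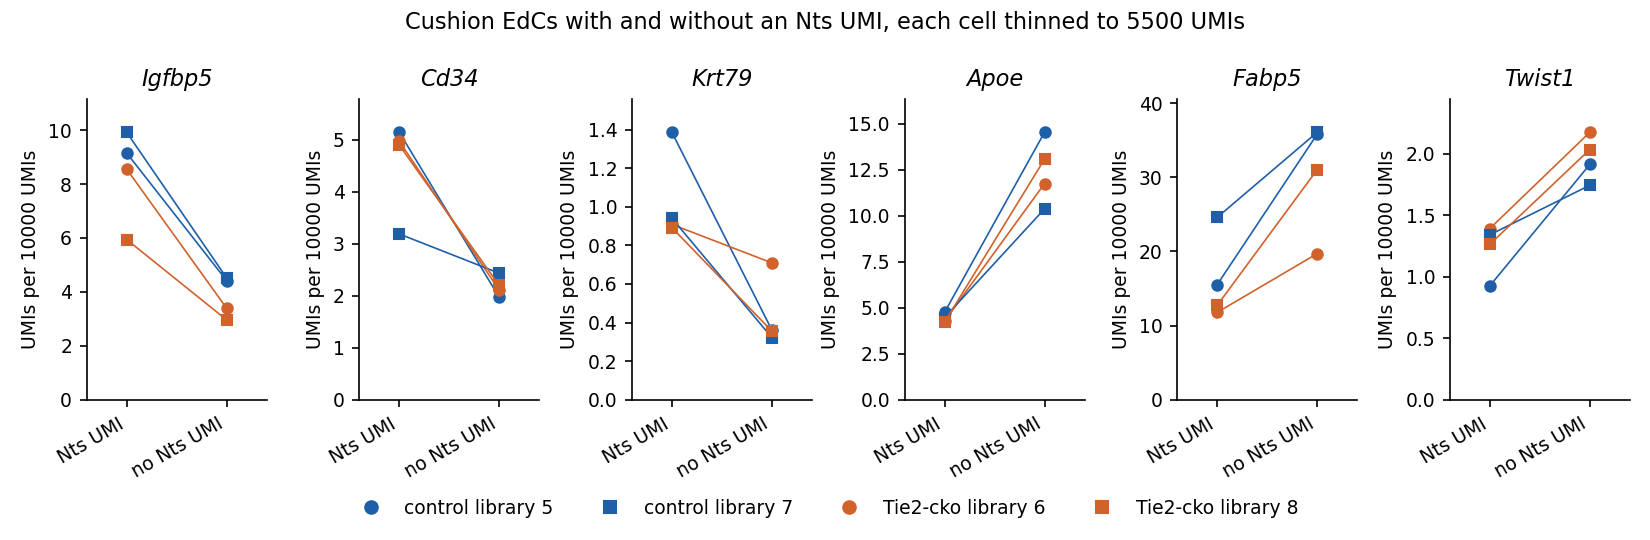
Levels (UMIs per 10000 UMIs, vertical axes from 0) of 6 genes in cushion EdCs with and without an *Nts* UMI, each cell thinned to 5500 UMIs. Lines join the 2 values of a library, blue for control and orange for *Tie2-cko*, and all 4 lines fall for *Igfbp5*, *Cd34* and *Krt79* and rise for *Apoe*, *Fabp5* and *Twist1*.

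The study set out to learn what endocardial *Tie2* controls, and cushion EdCs of both genotypes were compared to ask what differed with its loss. Of 11110 genes tested, edgeR called 0 (0.00%) at an adjusted p under 0.05 and gave 262 (2.36%) an unadjusted p under 0.05. DESeq2 called 3, the globin gene *Hbb-bt*, *Tek* and *Hspb1*, and gave 69 genes an unadjusted p under 0.05. In chamber EdCs edgeR called 0 of 11847 genes (0.00%), gave 672 (5.67%) an unadjusted p under 0.05, and DESeq2 called 12. When the unlabelled split of libraries 5 and 6 against 7 and 8 was used as a block, edgeR called 92 genes in cushion EdCs, 38 higher and 54 lower in *Tie2-cko*, and 697 in chamber EdCs, 421 higher and 276 lower. These fits leave 1 residual degree of freedom.

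The 10 genes of smallest p among those with no overlap between the genotypes were *Tek*, 6 globin genes, *Hspb1*, *Ptn* and *Entpd1*. One of the globins, *Hbb-y*, is a gene of the rule. It was tested and ranked with the others, but no call is read from it. Groups that do not overlap in this way made up 28.7% of the genes tested (18.7% with both *Tie2-cko* libraries higher, 10.1% with both lower). *Hspb1* (ENSMUSG00000004951, chr5:135887919-135889563, plus strand), a small heat shock protein, had levels of 1.97, 1.90, 3.61 and 3.54 in cushion EdCs. Libraries of a genotype lay close together and the genotypes apart, with a log2 fold change of 0.85 (SE 0.14) and an adjusted p of 0.218 by edgeR. In chamber EdCs the levels were 0.592, 0.793, 0.686 and 1.06. In CMs they were 22.9, 18.7, 21.7 and 17.5, and the part of free CM RNA in the cushion values was not tested. The share of thinned cushion EdCs with an *Hspb1* UMI did not follow the level, at 45.6, 52.9, 36.2 and 53.7%, and no order is read from it.

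Globin UMIs were fewer in the *Tie2-cko* libraries in every class examined. *Hbb-bh1*, an embryonic globin of red blood cells, had 5.71, 2.88, 1.31 and 0.984 in cushion EdCs. It had 4.99, 2.50, 1.19 and 0.917 in chamber EdCs, and CMs had the same order of libraries, with 1.76 in library 8. *Hbb-y*, which the rule used as an upper limit, had 27.3, 12.6, 6.43 and 5.29 in cushion EdCs. All 4 of the tested red blood cell genes outside the rule, which leaves out *Alas2*, had both *Tie2-cko* values below both control values, at a median log2 fold change of -1.97 over the list, against 0.0038 over all genes. All 4 had an unadjusted p under 0.05 by edgeR, and none an adjusted p under 0.05. Without control library 5 the log2 fold change was -1.37 for *Hbb-bh1*, -1.23 for *Hba-x*, -0.90 for *Hba-a1* and -1.14 for *Hba-a2*, while *Hbb-bt* had -1.92. The part of red blood cell RNA in other differences was not tested. *Ptn*, the growth factor pleiotrophin, had 0.385, 0.310, 0.891 and 0.518. Its log2 fold change of 0.97 was 0.57 without library 6 and 0.47 with presumed doublets removed. *Entpd1*, the endothelial ectonucleotidase CD39, had 0.492, 0.470, 0.326 and 0.317. Adjusted p-values by edgeR for the globins outside the rule, *Ptn* and *Entpd1* ran from 0.0543 to 1.0. The block for libraries 5 and 6 against 7 and 8 leaves 1 residual degree of freedom. With it all of the 10 genes passed the threshold, including *Hbb-y*, from which no call is read. The log2 fold changes were then 0.85 for *Hspb1*, 0.95 for *Ptn* and -0.62 for *Entpd1*.

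**Figure D4:**
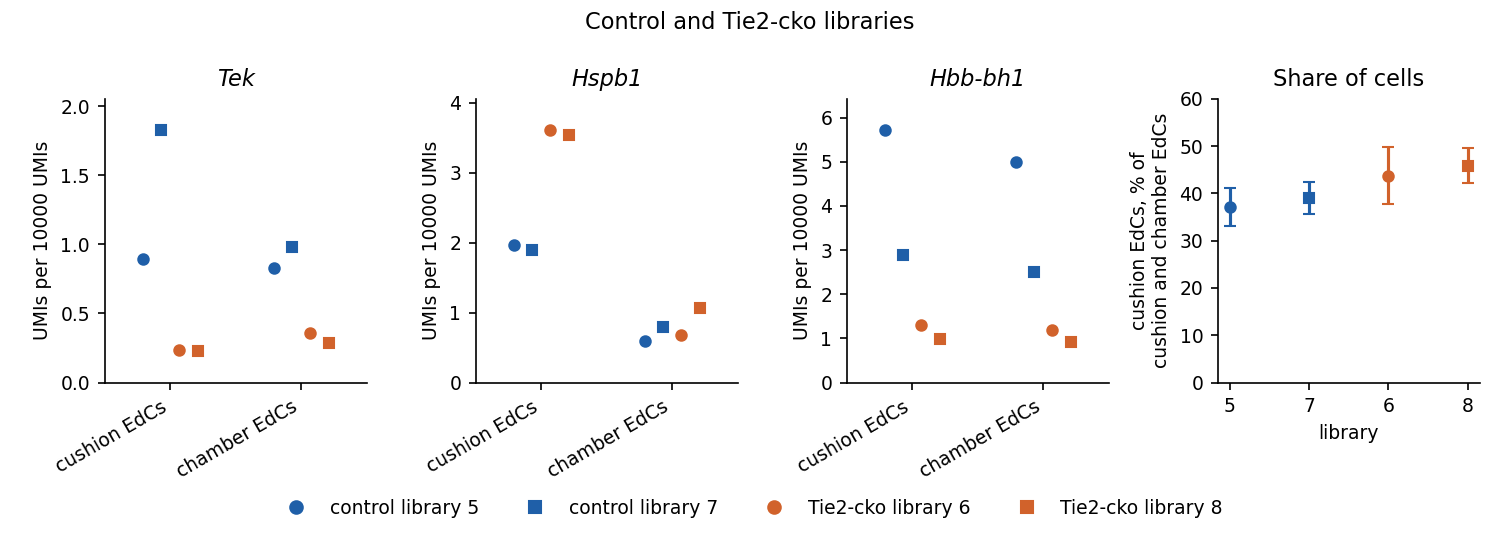
Levels (UMIs per 10000 UMIs) of *Tek*, *Hspb1* and *Hbb-bh1* in cushion and chamber EdCs, and the share of cushion EdCs among cushion and chamber EdCs (percent, with 95% exact binomial intervals), 1 point per library. *Tek* and *Hbb-bh1* points of both *Tie2-cko* libraries (orange) lie below those of both controls (blue) in both classes, *Hspb1* points lie above them in cushion EdCs, and both *Tie2-cko* shares are above both control shares.

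In the list of Tie pathway genes no member other than *Tek* had an unadjusted p under 0.05, and 1 of 10 outside the rule, *Tek*, was lower in both *Tie2-cko* libraries. *Tie1*, its sister receptor, had 0.973, 0.780, 0.848 and 0.850 in cushion EdCs. *Foxo1* had 0.836, 0.805, 0.786 and 0.850, and *Ptprb* had 2.39, 2.77, 2.50 and 2.22. The genotypes overlapped for each of these 3 genes, of which *Tie1* is a rule gene. On a list of FOXO1 targets named by the study, which also holds *Edn1*, 9 genes were tested. Of these, 2 had both *Tie2-cko* values above both control values and 1 had both below. Over all genes tested the shares were 18.7% higher and 10.1% lower. The genotypes overlapped for the other tested genes of the list, *Gja4* among them. The list mixes genes described as lowered by nuclear FOXO1 (*Col13a1*, *Nos3* and *Gja4*) with genes described as raised by it, such as *Pdgfb* and *Vcam1*, so no median over it is given. *Timp3*, an inhibitor of ADAMTS proteases, had 0.515, 0.287, 0.599 and 0.624. Both *Tie2-cko* libraries were above both controls, with a log2 fold change of 0.58 (SE 0.23), an unadjusted p of 0.0329 and an adjusted p of 1.0 from edgeR across all genes. *Tcf4*, a bHLH factor, had 1.17, 1.21, 1.44 and 1.48. *Col13a1*, a transmembrane collagen, had 0.446, 0.544, 0.335 and 0.323 and a log2 fold change of -0.63 (SE 0.16). *Edn1* and *Nos3*, the nitric oxide synthase of endothelium, had log2 fold changes of 0.11 (SE 0.21) and -0.24 (SE 0.17) with overlapping genotypes. The study drew *Timp3* and others of this list from results on these mutants, so their direction is not independent evidence.

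Genes that mark cushion EdCs were compared between the genotypes in the same way. *Klf2* had 7.90, 8.45, 7.84 and 8.67, with overlapping libraries and a log2 fold change of -0.021 (SE 0.14). *Klf4* had 1.19, 0.978, 1.27 and 1.21, *Vcan* 7.95, 7.14, 8.30 and 9.12 and *Has2* 0.943, 0.817, 1.04 and 1.11. For these 3 genes both *Tie2-cko* libraries lay above both controls, with log2 fold changes of 0.16 (SE 0.15), 0.17 (SE 0.14) and 0.25 (SE 0.15) that were not called. *Nfatc1* overlapped between the genotypes and *Wnt4* was lower in both *Tie2-cko* libraries, at the levels given above, which are a description because the rule used both genes. Of 14 tested factors of EMT and cushion development, 8 were higher in both *Tie2-cko* libraries and none lower, against 18.7% and 10.1% of all genes, with a median log2 fold change of 0.13 and none called. *Sox9* and *Snai1* had an unadjusted p under 0.05. *Sox9* had 0.849, 0.753, 1.12 and 1.06, with an unadjusted p of 0.0153 and an adjusted p of 1.0 from edgeR across all genes.

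Other lists were described by the same counts, without the genes of the rule. Over all genes tested, 18.7% were higher and 10.1% lower in both *Tie2-cko* libraries, and the lists were not tested against these shares. Of 17 tested Wnt genes, 6 were higher and none lower in both *Tie2-cko* libraries (median log2 fold change 0.17), and *Dkk1*, a secreted Wnt inhibitor of very low level, had 0.0177, 0.0229, 0.105 and 0.0768, close to 0 in the controls. Of 22 BMP and TGF-beta genes, 6 were higher and 1 lower (median 0.077). Notch (3 higher and 1 lower of 13), VEGF (1 and 1 of 9), matrix (4 and 3 of 19), protease (4 and 1 of 11), flow (2 and 1 of 14) and NFAT genes (1 and 0 of 7) each had at most 4 genes in a direction. None of 10 adhesion genes and none of 3 neuregulin and EGF genes separated the genotypes. Of 8 genes of the mesenchymal list 3, *Sox9*, *Twist1* and *Papss2*, were higher and none lower (median 0.26), and *Sox9* and *Papss2* had an unadjusted p under 0.05. In the cell cycle list 1 of 15 was higher and 1 lower, and *Mki67* had 1.66, 1.27, 1.55 and 1.61, with overlapping genotypes. Of 8 tested neuronal-type genes 1, *Tubb3*, was lower in both *Tie2-cko* libraries, at 0.228, 0.140, 0.103 and 0.112, and none was higher.

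The share of cushion EdCs among cushion and chamber EdCs was 37.1% (216 of 582, 33.2% to 41.2%) in control library 5, 39.0% (314 of 805, 35.6% to 42.5%) in control library 7, 43.7% (118 of 270, 37.7% to 49.8%) in *Tie2-cko* library 6 and 45.8% (331 of 722, 42.2% to 49.6%) in *Tie2-cko* library 8, with 95% exact binomial intervals that cover counting error only. Both *Tie2-cko* libraries lay above both controls, although the interval of library 6 reached into those of both controls and that of library 8 into that of library 7. The means were 38.1% ± 1.34 (SD, n = 2) and 44.8% ± 1.51 (SD, n = 2), a difference of 6.71 percentage points. An exact two-sided permutation test over the 4 libraries gave p = 0.333, the smallest it can give. The difference was between 5.48 and 8.66 percentage points under all 9 alternatives, the lowest being that with *Nfatc1* left out of the rule's last clause. Among all kept barcodes, cushion EdCs made up 2.39%, 3.94%, 2.64% and 3.69%, and here the libraries of a genotype differed more than the genotypes (exact two-sided permutation p = 1.0). Chamber EdCs numbered 366 of 9019, 491 of 7965, 152 of 4468 and 391 of 8963 kept barcodes, and their share was not tested. More cushion EdCs and fewer chamber EdCs would give the same first share and cannot be told apart from it. Among the 6 genes that place a cell in a class, *Wnt4* and *Gpr182* had lower chamber levels in *Tie2-cko* hearts without overlap. *Emcn* and *Nfatc1* had higher ones without overlap, *Nfatc1* by little (0.476 and 0.468 in controls, 0.491 and 0.493 in *Tie2-cko*). Such a change can itself move cells across the line, and it cannot be told apart from a change in cell numbers.

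Whether the genotypes differed in another way in cushion than in chamber EdCs was tested by a class by genotype term, again blocked by library. Of 12014 genes, 33 (0.275%) were called, 11 (0.0916%) with a higher and 22 (0.183%) with a lower cushion-minus-chamber difference in *Tie2-cko*. Without control library 7 none was called, and leaving out control library 5, mutant library 6 or mutant library 8 gave counts of 67, 201 and 290, from fits in which 1 genotype has a lone library and 1 residual degree of freedom is left. Without library 7 the log2 differences of the 10 genes of smallest p kept their sign, and that of *Fst* was -3.12, of *Trim47* -1.04 and of *Tmsb4x* -0.49. With the rule applied to thinned cells the count was 21, with presumed doublets removed 19 and with *Nfatc1* left out of the rule's last clause 9. For 29 of the 33 genes the fold change between genotypes was larger in chamber than in cushion EdCs. For 26 the classes were closer to each other in *Tie2-cko* than in control hearts. These counts were not made over all genes tested. Between genotypes, 5.67% of genes tested in chamber EdCs and 2.36% in cushion EdCs had an unadjusted p under 0.05 by edgeR. Among the genes that place a cell in a class, *Emcn*, *Nfatc1*, *Wnt4* and *Gpr182* differed between genotypes in chamber EdCs without overlap. Such changes can move cells between the classes, and their part in this term was not tested.

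Of the 10 genes of smallest p for this term, *Stmn2* is the one that marks cushion EdCs. Its chamber levels were 0.203 and 0.188 in controls and 0.342 and 0.471 in *Tie2-cko*, without overlap, whereas its cushion levels of 1.91, 3.01, 1.70 and 2.32 overlapped. The log2 difference of the fold changes was -1.33 (SE 0.18), with an adjusted p of 0.0174 by edgeR. The call was lost with the rule applied to thinned cells (-0.79, adjusted p 0.204), without *Nfatc1* in its last clause (-1.0, 0.0906) and without control library 7 (-0.93, 0.227). Another 2 neuronal-type genes of the list, *Elavl4* and *Gap43*, were among the 33, and both were higher in both *Tie2-cko* chamber libraries with overlapping cushion levels. *Elavl4* had chamber levels of 0.0283, 0.0258, 0.0815 and 0.104 and a log2 difference of -1.51 (SE 0.27), and *Gap43* had 1.44, 1.33, 2.51 and 2.22 and -0.88 (SE 0.16).

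Of the 10 genes, *Tmsb4x* and *Sparc* were called in every alternative analysis that kept all 4 libraries, and each of the other 8 lost its call in at least 1 of them. *Tmsb4x*, the actin-binding peptide thymosin beta 4, had 62.9, 78.1, 57.0 and 64.5 in cushion EdCs and 34.3, 37.8, 44.6 and 48.2 in chamber EdCs, and its log2 difference of -0.58 (SE 0.055) had the smallest adjusted p, 0.00185 by edgeR. *Myl9*, a regulatory myosin light chain, had 0.621, 0.663, 0.606 and 0.624 in cushion EdCs and 0.549, 0.602, 1.06 and 0.939 in chamber EdCs, so that the chamber level was below the cushion level in controls and above it in *Tie2-cko* hearts. Its log2 difference was -0.86 (SE 0.13) and -0.034 with the rule applied to thinned cells. *Tgfb1i1*, the focal adhesion protein HIC-5, had 0.682, 0.888, 0.738 and 0.673 against 0.278, 0.316, 0.494 and 0.509. In all 3 genes the chamber values of the genotypes were apart and the cushion values overlapped.

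*Fst*, the activin antagonist follistatin, had 0.175, 0.383, 0.201 and 0.199 in cushion EdCs and 0.00614, 0.0146, 0.0853 and 0.0424 in chamber EdCs. Its log2 difference of -3.07 (SE 0.42) was -1.16 with the rule applied to thinned cells (adjusted p 0.670), -1.86 without *Nfatc1* in its last clause (0.0906) and -2.07 under the stricter limits (0.291), so that the call was lost in each. *Sparc*, a matrix glycoprotein, had 8.63, 8.77, 8.17 and 7.84 against 6.52, 6.86, 8.08 and 8.41, and *Trim47* had 0.877, 0.711, 0.798 and 0.654 against 0.449, 0.448, 0.793 and 0.721. For *Sparc* and *Trim47* the chamber levels of *Tie2-cko* hearts thus reached those of cushion EdCs. *Crip1*, a LIM-domain protein, had 13.4, 19.4, 10.0 and 14.1 against 4.31, 5.56, 4.69 and 6.05, with a fold change of -0.47 on the log2 scale in cushion EdCs and 0.083 in chamber EdCs. The histone genes *Hist1h2ae* and *Hist1h1b* had 5.35, 6.94, 3.95 and 3.99 and 4.94, 3.78, 2.89 and 1.88 in chamber EdCs and 4.17, 5.30, 4.69 and 4.25 and 5.39, 3.46, 4.70 and 2.76 in cushion EdCs, the latter overlapping between the genotypes. Among signalling and matrix genes of the lists, *Hbegf*, *Hapln1* and *Col26a1* were also called, with log2 differences of -0.94 (SE 0.16), 0.46 (SE 0.078) and 1.21 (SE 0.22).

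**Figure D5:**
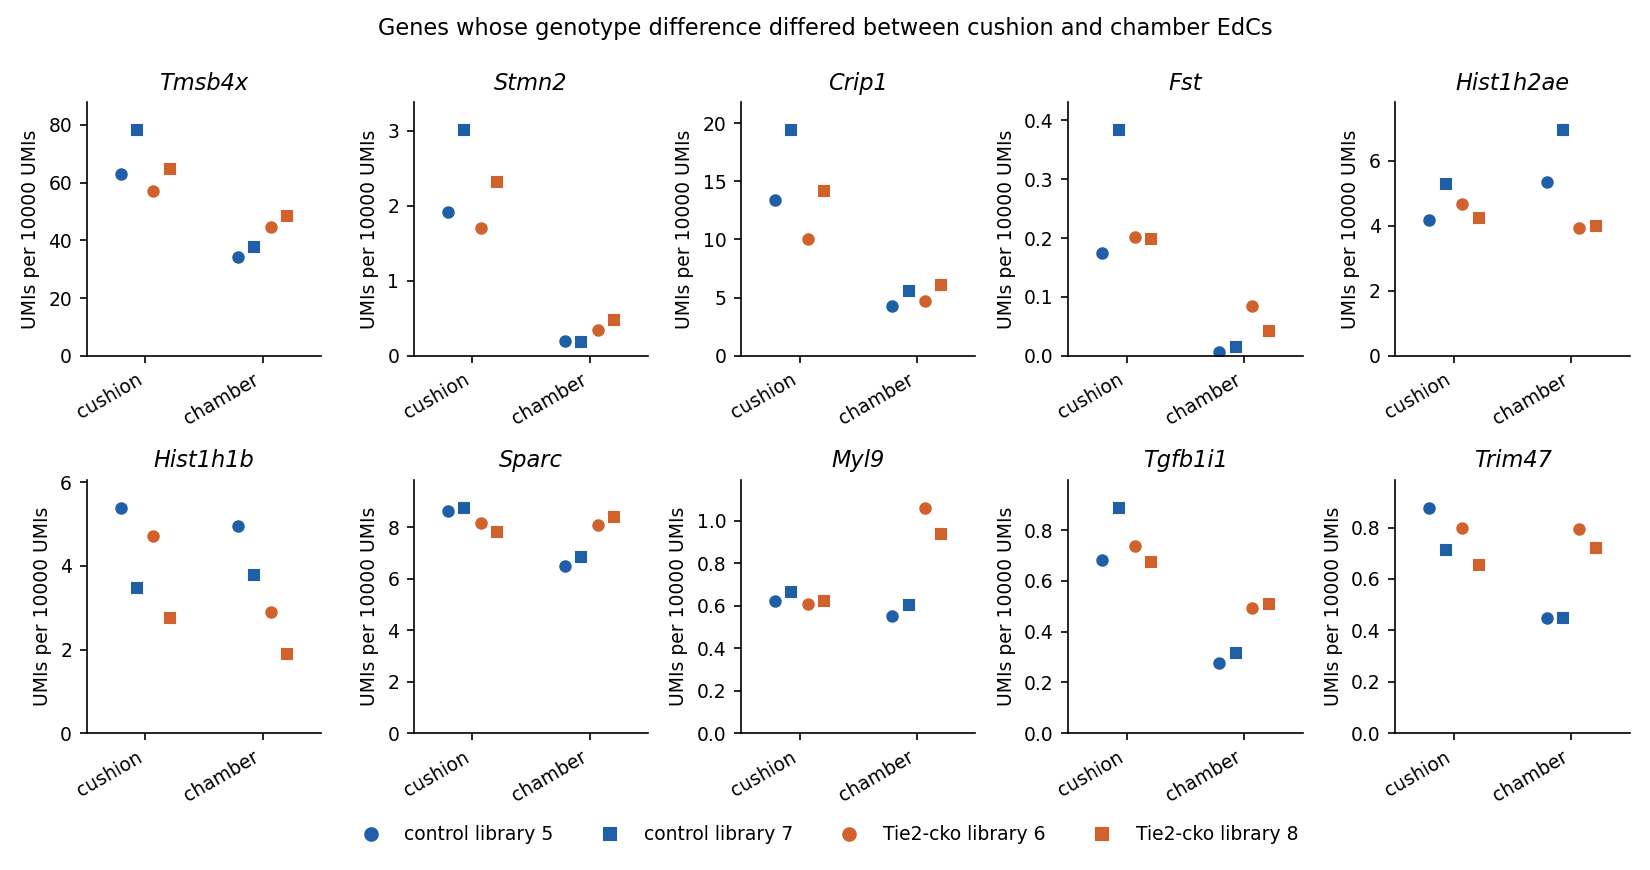
Levels (UMIs per 10000 UMIs, vertical axes from 0) of the 10 genes of smallest p for the class by genotype term, 1 point per library, blue for control and orange for *Tie2-cko*. For *Tmsb4x*, *Stmn2*, *Fst*, *Sparc*, *Myl9*, *Tgfb1i1* and *Trim47* both orange chamber points stand above both blue ones, whereas their cushion points overlap or lie the other way round.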

How the data were processed

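Single-cell suspensions of whole E10.5 hearts were profiled on the 10x Genomics platform in 4 libraries. The authors deposited 1 filtered matrix of UMI counts per library, with 32285 genes and 18488, 11172, 8877 and 11899 barcodes in libraries 5, 7, 6 and 8, aligned to mm10 per the submitters' processing notes and made with Cell Ranger 6.1.2 per the file headers. These matrices held 259775540, 169361996, 222270938 and 210062861 UMIs, and the study's methods give the kit by catalogue numbers, which were not resolved here to the transcript end counted. After the limits on genes and mitochondrial UMIs, 9019, 7965, 4468 and 8963 barcodes were kept, with median UMIs of 22023, 16625, 36302.5 and 18758. Ambient RNA was not subtracted, and presumed doublets (Scrublet in scanpy 1.11.5, top 0.8% of barcodes per 1000) were left in and removed in an alternative.

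Raw counts of the cells of a class were summed per library. Genotypes were compared within a class, classes with the library as a block, and class by genotype with the library as a block, with edgeR 4.0.16 (TMM factors, filterByExpr, quasi-likelihood test) in R 4.3.3, all genes in 1 fit. Standard errors were derived from the F statistic. DESeq2 1.42.0 was an alternative. The scripts were tested on simulated data. Thinning drew 5500 UMIs per cell without replacement and left out shallower cells. Named genes were the 14 rule genes, the given markers, *Tek*, up to 10 genes by p between the genotypes whose libraries did not overlap (level of at least 0.2), up to 12 higher and 12 lower genes between the classes (level of at least 0.5, same sign in 4 libraries), up to 10 genes of the class by genotype term and members of gene lists. The members, rule and lists were chosen with earlier results of these data known. Coordinates are from GENCODE on GRCm38. Replicates are libraries, and p-values measure the spread between them. The labels name no separate animals, and the study's methods name 2 hearts a genotype.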

Additional observations from a re-analysis of the deposited data

Results flagged for a closer look

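The 10 genes of smallest p for the class by genotype term drew attention because the fold change between genotypes differed between cushion and chamber EdCs by edgeR's test of that difference. The log2 differences, cushion minus chamber, were -0.58 for *Tmsb4x*, -1.33 for *Stmn2*, -3.07 for *Fst*, -0.56 for *Crip1*, -0.42 for *Sparc*, -0.91 for *Tgfb1i1*, -0.86 for *Myl9*, -0.88 for *Trim47*, 0.54 for *Hist1h2ae* and 0.63 for *Hist1h1b*, and the adjusted p-values by edgeR were at most 0.0259. In 7 of these genes both *Tie2-cko* chamber libraries were above both controls, in the 2 histone genes both were below, and in *Crip1* they overlapped. None of the 10 was called without control library 7, in a fit with a lone control library, although each kept its sign, with log2 differences of -3.12 for *Fst*, -1.04 for *Trim47*, -0.93 for *Stmn2* and 0.53 for *Hist1h2ae*. The split of libraries 5 and 6 from 7 and 8 moves with several of the levels, and its part in these differences was not tested. The part of cells moved across the line of the rule was not tested either.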

How the results depend on the processing

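The labels give the genotypes no replicate numbers in common, so no pairing was taken from them, and the block below follows the unlabelled split of the libraries. In cushion EdCs the 0 genes that edgeR called between the genotypes became 2 with RLE factors, 32 without a filter on low counts, 3 with DESeq2, 92 with libraries 5 and 6 blocked against 7 and 8, 2 with the rule applied to thinned cells, 1 without *Nfatc1* in the rule's last clause, 1 with a margin of at least 3 UMIs, 3 with presumed doublets removed, and 6 to 21 with 1 library left out. In chamber EdCs, whose alternatives were added after the data had been seen, 0 became 171 without the filter, 12 with DESeq2, 697 with that block, 1 with thinned cells and 0 to 57 with 1 library left out. The class by genotype term called 33 genes, but 74 without the filter, 21 with thinned cells, 9 without *Nfatc1*, 19 with presumed doublets removed and 0 to 290 with 1 library left out. The difference in the share of cushion EdCs among cushion and chamber EdCs was 8.66 percentage points with a margin of at least 3 UMIs and 5.64 to 7.79 with 1 library left out, against 6.71, and among kept barcodes it was -0.775 to 0.772 with 1 library left out. The cause was not tested in any case. Between the classes 4289 to 5882 genes were called under 11 alternatives, and all 264 values for the 24 named genes kept their direction and their side of the threshold. For genes named by genotype, fits with 1 library left out give a genotype a lone library, so their crossings of the threshold are not counted. In the alternatives that kept all libraries, each of the 10 genes named between genotypes in cushion EdCs passed the threshold at least once and missed it at least once. The rule gene *Hbb-y* is among these 10. In the class by genotype term *Tek* passed it without the filter on low counts only. Of the 10 genes of that term, only *Tmsb4x* and *Sparc* kept their call in all of these alternatives. No named gene changed direction. With 118 to 331 cushion EdCs, levels under 0.00591 to 0.00760 rest on 3 UMIs or fewer, and with 2 libraries a genotype an exact test of a share cannot go below p = 0.333.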

Other observations

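The 447 endothelial cells without a UMI of *Npr3*, *Nrg1* or *Nfatc1* numbered 97 and 170 in the control libraries 5 and 7 and 39 and 141 in the *Tie2-cko* libraries 6 and 8. Several cushion genes were lower in them than in cushion EdCs in each library. *Klf2* had 2.28, 2.88, 1.59 and 2.70, in the order of libraries used above. *Stmn2* had 0.534, 1.42, 0.369 and 1.08, and *Nts* had 0.216, 0.757, 0.253 and 0.589. *Vcan* had 2.81, 3.28, 0.583 and 4.77, and *Tbx20* had 0.794, 1.23, 0.194 and 1.20. Library 6 was lowest for all of these genes but *Nts*, and library 5 was next for all but *Nts*, for which it was lowest.

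Of the relatives of *Stmn2*, *Stmn1*, which dividing cells commonly express, had 6.82, 5.28, 6.80 and 3.79 in cushion EdCs, whereas *Stmn3* and *Stmn4* did not exceed 0.0161 and 0.0138. The synaptic genes *Snap25* and *Syt1* did not exceed 0.00787 and 0.0120. *Gap43*, a growth cone protein, had 1.68, 2.23, 1.68 and 1.94.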
